A study of Mus musculus with 27 samples.

Results

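The genes described here are 37 mouse genes of DNA damage signalling and repair, chosen by symbol for what their products are known to do. They were read in bone marrow-derived macrophages grown from marrow cells that had or had not received a proton beam. All 37 symbols stood among the 19069 named genes of the deposited expression table, and all 37 were among the 13297 genes tested, which reached at least 1 CPM (defined below) in at least 3 of the 27 libraries. By route they were 4 damage and checkpoint kinases, 8 genes of break sensing and chromatin marking, 6 of homologous recombination, 5 of end joining, 3 of the Fanconi pathway, 6 of single-strand break and base excision repair, 4 of nucleotide excision repair and 1 of mismatch repair.

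Marrow from the leg bones of C57BL/6 mice was given 5 Gy of FLASH protons, 5 Gy of standard protons, or no beam. FLASH is a way of delivering the same kind of radiation at a very high dose rate. After the beam, all cultures, controls included, grew for 7 days in 10 ng/ml CSF-1, the growth factor that turns marrow cells into macrophages. They then had 2 days of plain medium (called M0), 100 ng/ml LPS, a bacterial product (M1), or 20 ng/ml IL-4, a type 2 cytokine (M2). The 3 beam settings and 3 culture states made 9 groups of 3 libraries each. The beam therefore reached marrow cells, while the RNA came from the macrophages that grew out afterwards. The labels do not say whether libraries of a group came from separate mice or cultures, so the p-values below measure the spread between these libraries only.

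A double-strand break is bound by the Mre11-Rad50-Nbn complex, which activates the kinase Atm. Atm and its relatives mark histone H2AX around the break, and the mark gathers Mdc1, the ubiquitin ligases Rnf8 and Rnf168, and 53BP1. The break is then closed by end joining, which works in resting cells, or by homologous recombination, which copies the sister chromatid and so is used by dividing cells. Single-strand breaks and damaged bases, the more frequent lesions after ionizing radiation, are handled by Parp1 and Parp2, the scaffold Xrcc1, the ligase Lig3 and enzymes such as Apex1 and Ogg1. Macrophages mostly leave the cell cycle as they mature, and LPS slows the division of those that still cycle.

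Values are counts relative to library size (CPM), scaled between libraries by the submitters. The whole-number steps in the low values correspond to 20.7 to 25.8 M reads per library, M standing for mega. As a check of the beam labels, the p53 target Cdkn1a, which stops the cell cycle, read 168 to 353 CPM in the non-irradiated libraries and 478 to 858 CPM in the irradiated ones, with no overlap. Of 19 tested p53 targets, 9 were higher and 1 lower after FLASH, and 10 were higher and 1 lower after standard protons. Macrophage markers summed to 10460 to 32620 CPM over 9 genes, none of them at 0 in any library. Non-irradiated M2 was the lowest group, at 10460 to 12330 CPM, against 15830 CPM or more in every other library. By 20 LPS response genes and 20 IL-4 response genes, 5 libraries went against their labels, each replicate 1 of an irradiated group, so the members' counts below are also given without them where they differ. The IL-4 response appeared in the libraries labelled FLASH M0 and standard M1, the LPS response in those labelled FLASH M2 and standard M2, and neither in that labelled FLASH M1. Markers of other marrow cells differed too. Of 12 neutrophil precursor genes 10 were called lower in each irradiated arm; they summed to 617 to 1172 CPM in non-irradiated M0 and 44.3 to 133 CPM in irradiated M0. Of 7 tested B-lineage genes 7 were called lower after FLASH and 6 after standard protons; the list summed to 118 to 149 CPM in non-irradiated M0 and 8.68 to 23.8 CPM in irradiated M0. In bulk RNA, fewer cells of a type and less RNA per cell cannot be told apart.

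Promoter sequence is shown for 5 members that share the letters CACGTG, the E-box read by basic helix-loop-helix factors, because they include Lig3, Parp2, Apex1 and Parp1, whose levels the results below turn on. Of the 37 members, 29 had an entry in the RefSeq promoter table of build GRCm38.p6. Within the 250 bases before the first listed start, on either strand, CACGTG stood in 5 of 29 members (17.2%) and in 6.0% of 27025 genes. The motif was chosen after the values had been seen, and a match is a description of letters, not a binding site. Each line gives 30 bases on the plus strand, 5′ to 3′, with CACGTG in capitals.
Lig3: agaacagcgaccCACGTGgcgaccggaggg
Parp2: acacgcactcagCACGTGgccccgctgatg
Apex1: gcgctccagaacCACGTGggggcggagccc
Parp1: acctcccaaggaCACGTGctgaagccccgc
Xrcc5: tgatgtgtgggaCACGTGgagatcagaggg
The Lig3 stretch lies at chr11:82781076-82781105, and its motif starts 21 bases before the start. The Apex1 stretch lies at chr14:50924913-50924942, with the motif starting 24 bases before the start, and the Parp1 stretch at chr1:180568830-180568859, starting 49 bases before. Those of Parp2 at chr14:50807725-50807754 and Xrcc5 at chr1:72307211-72307240 start 179 and 198 bases before. In the GENCODE vM21 annotation, the Parp2 stretch also overlaps exons of Rpph1 and Ccnb1ip1 on the minus strand. The letters CCAAT, read by the factor NF-Y, stood in 14 of the 29 members (48.3%) and 34.5% of genes. The letters GCGGGAA, a form of the E2F site, stood in 8 of 29 (27.6%) and 3.8% of genes, namely Bard1, Chek2, Brca2, Xrcc4, Xrcc6, Rnf168, Rnf8 and Mdc1.

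The members differed widely in how steady they were. Leaving out Brca2, the highest of the 27 libraries exceeded the lowest by a median of 2.6-fold, and 10 members stayed under 2-fold. The steadiest were Ercc4, a subunit of the excision nuclease, at 18.4 to 27.5 CPM, and Rad50 at 24.8 to 40.9 CPM. More than 5-fold separated the extremes of 7 members: Fanca (3.22 to 44.8 CPM), Fancd2 (0.966 to 10.6 CPM), Bard1, Chek1, Exo1, Apex1 and Fanci. Except for Apex1, these serve replication checkpoints, recombination or crosslink repair. Brca2, a homologous recombination gene, was listed at exactly 0 in 17 libraries and reached 1 CPM in 3, with 1.88 CPM the highest, so no fold is given for it. Ddb2, a sensor of ultraviolet damage, ranged from 0.41 to 1.79 CPM.

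With all libraries, few of these genes were called after irradiation, and each called difference was lower. Over the mean of the 3 states, limma called 0 members higher and 3 lower after FLASH, namely H2afx, Lig3 and Parp2, and 0 higher and 2 lower after standard protons, namely H2afx and Lig3. Of all tested genes, 7.72% were called after FLASH (3.26% higher, 4.47% lower) and 7.88% after standard protons (3.36% higher, 4.52% lower), so 3 and 2 of 37 (8.11% and 5.41%) lie near the background. Without the 5 libraries at odds, 3 members were lower in each arm, the same 3 genes, and 1 (Apex1) was higher after FLASH, with 14.3% and 17.9% of all genes called. The median log2 difference of the members was -0.08 after FLASH and -0.09 after standard protons, beside -0.01 and -0.01 over all genes. Negative differences were seen in 23 and 26 of 37 members, where 51.1% and 51.2% of all genes were negative. The 2 comparisons share the 9 non-irradiated libraries and so do not stand as independent evidence of each other.

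**Figure D1:**
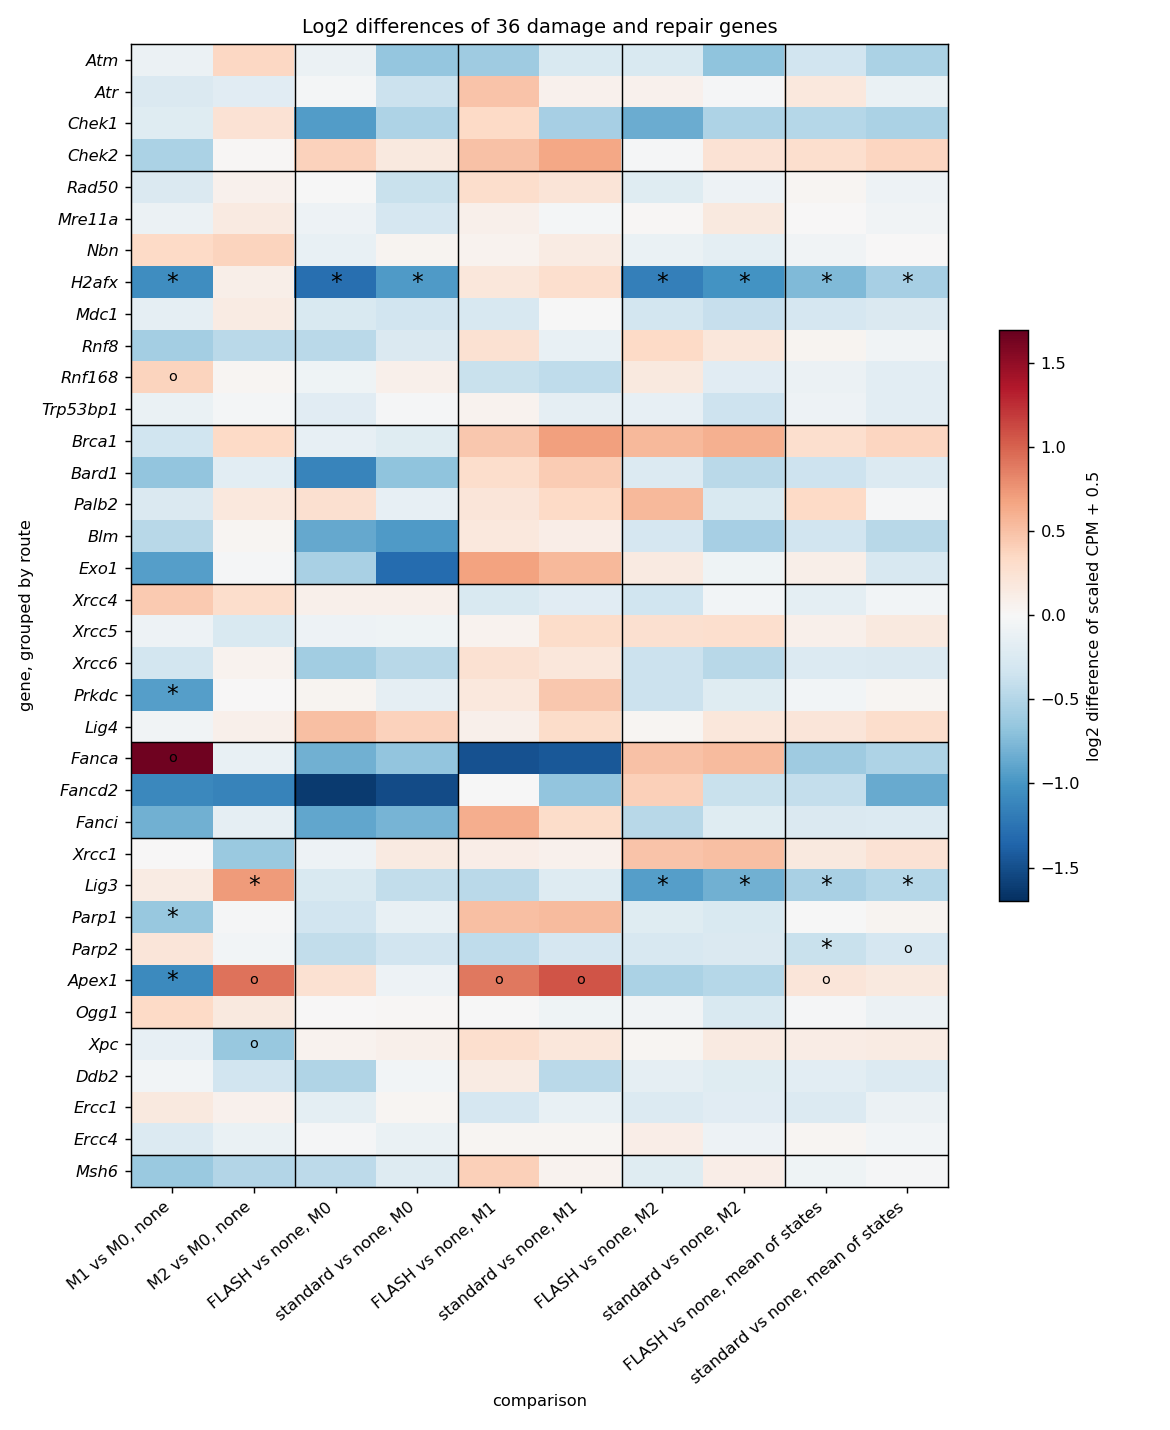
Log2 differences of 36 of the 37 genes (rows, grouped by route with black lines; Brca2 left out) in 10 comparisons (columns), red for higher and blue for lower in the first-named group. A star marks a limma call at adjusted p below 0.05, and a small circle a call made only without the 5 libraries that go against their labels; stars after irradiation fall on H2afx, Lig3 and Parp2.

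H2afx encodes histone H2AX, the variant whose phosphorylated form marks chromatin around a break. In M0 it read 33.7, 40.1 and 43.8 CPM without a beam, 16.7, 18.7 and 12.3 CPM after FLASH and 20.1, 16.5 and 23.0 CPM after standard protons. In M2 it read 51.2, 44.8 and 31.6 CPM without a beam, 15.0, 21.0 and 19.8 CPM after FLASH and 21.5, 22.5 and 17.6 CPM after standard protons. In both states every irradiated library was below every non-irradiated one. In M1 it read 21.7, 17.0 and 17.2 CPM without a beam, 19.1, 19.8 and 25.7 CPM after FLASH and 21.4, 19.3 and 28.6 CPM after standard protons, and these groups overlapped. Thus the 18 irradiated libraries and non-irradiated M1 all lay between 12.3 and 28.6 CPM, whatever their state, and the non-irradiated M0 and M2 libraries stood above them.

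By limma, H2afx was lower over the mean of states by -0.75 on the log2(CPM + 0.5) scale after FLASH (SE 0.12, adjusted p = 0.000312) and by -0.56 after standard protons (SE 0.12, adjusted p = 0.0043). Both calls held in each of the 18 fits that left out 1 library, and without the 5 libraries at odds the differences were -0.69 and -0.56. The same data split by replicate number gave a negative difference for each number, at -0.97, -0.65 and -0.63 after FLASH. After standard protons the differences were -0.66, -0.69 and -0.34. In M0 it was -1.29 after FLASH (adjusted p = 0.00115) and -0.97 after standard protons (adjusted p = 0.0122), the only member called there in either comparison, where 2.11% and 2.02% of all genes were called (0.489% and 0.677% higher, 1.62% and 1.35% lower). In M2 it was -1.16 (adjusted p = 0.00578) and -1.02 (adjusted p = 0.0131). In M1 it was 0.20 (adjusted p = 0.69) and 0.29 (adjusted p = 0.48). The FLASH difference in M1 exceeded that in M0 by 1.49 (SE 0.29, adjusted p = 0.0405), the single member called of 37 where 0.12% of all genes were called (0.0451% higher, 0.0752% lower). For standard protons the same contrast was 1.26 (adjusted p = 0.144), and limma called 0 members, where 0.0902% of all genes were called (0.0301% higher, 0.0602% lower). At unadjusted p below 0.05 stood 7 members, 6 higher and 1 lower, beside 8.34% of all genes.

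Some of these single-state calls were lost when 1 library was left out. Over those fits the difference ranged from -1.08 to -0.84 after standard protons in M0. In M2 it ranged from -1.355 to -1.011 after FLASH and from -1.21 to -0.87 after standard protons. The M0 call after standard protons was lost without non-irradiated M0 replicate 2 (adjusted p = 0.0517) or 3 (0.0792) or without standard M0 replicate 2 (0.0746). The M2 call after FLASH was lost without non-irradiated M2 replicate 1 (0.0546), and that after standard protons without non-irradiated M2 replicate 1 (0.114) or 2 (0.0602) or standard M2 replicate 3 (0.0726). The M1-by-FLASH contrast held only without non-irradiated M1 replicate 1, FLASH M0 replicate 2 or FLASH M1 replicate 1. It was lost in the other 9 fits that left out 1 library (0.0522 to 0.147), and with replicate number as a block in the fit. An annotated microRNA, Gm44335, overlaps an H2afx exon on the opposite strand, and the strandedness of the libraries is not given in the sources used here.

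Cell cycle genes differed between groups as well. The summed level of 26 cell cycle genes was 1283 to 1734 CPM in non-irradiated M0, 694 to 838 CPM in non-irradiated M1 and 981 to 2471 CPM in non-irradiated M2. It was 879 to 1247 CPM in M0 after FLASH and 1088 to 1267 CPM after standard protons, both below non-irradiated M0. In M1 it was 918 to 1358 CPM after FLASH and 878 to 1339 CPM after standard protons, all above non-irradiated M1. In M2 the irradiated libraries read 1091 to 1431 CPM, within the non-irradiated range. The medians of the 26 log2 differences were -1.32 and -0.86 in M0 (25 of 26 negative in each arm), 0.36 and 0.19 in M1 (24 and 22 of 26 positive), and -0.32 and -0.49 in M2 (26 of 26 negative in each). For the contrast of M1 with M0 they were 1.5 after FLASH and 1.02 after standard protons, with 26 of 26 positive in each, beside 1.49 and 1.26 for H2afx. Limma called 0 of the 26 genes in any of these comparisons with all libraries. The medians over the mean of states, which averages opposite signs, were -0.37 and -0.38. The part of the cell cycle genes, and of the neutrophil precursor and B-lineage genes that were also lower after irradiation, in the H2afx difference was not tested.

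**Figure D2:**
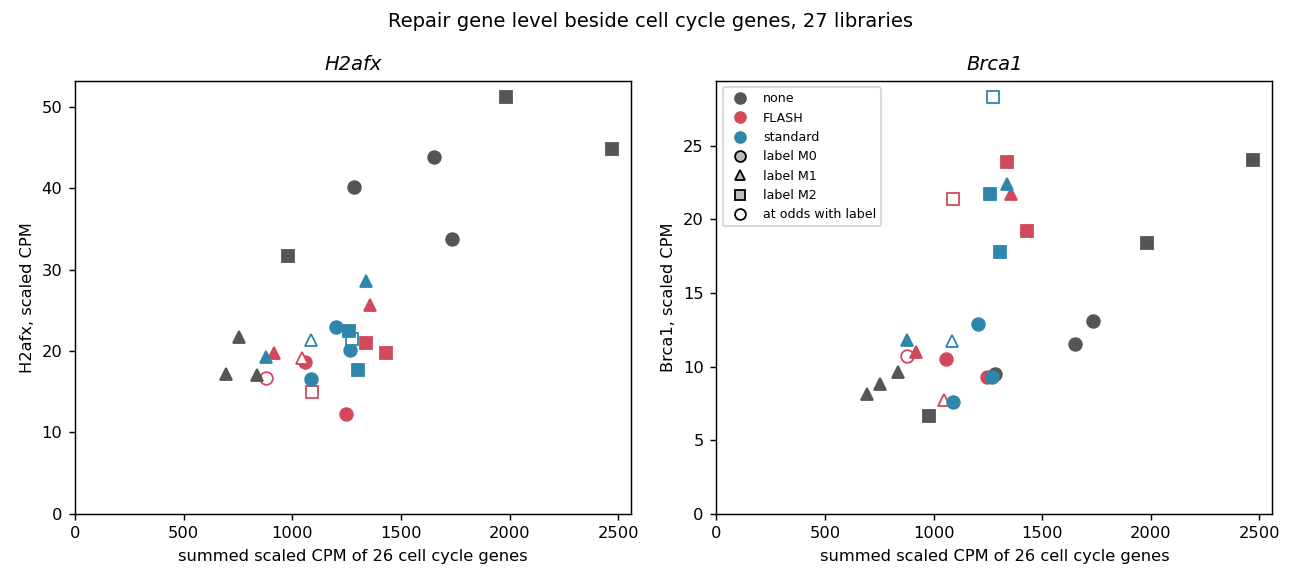
H2afx (left) and Brca1 (right) in CPM against the summed CPM of 26 cell cycle genes, 1 point per library; colour gives the beam, shape the labelled state, and open symbols the 5 libraries at odds with their labels. Non-irradiated M0 and M2 libraries lie at 31.6 CPM of H2afx or more, and the irradiated and non-irradiated M1 libraries at 28.6 CPM or less.

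Lig3, the ligase that seals single-strand breaks with Xrcc1 and serves mitochondrial DNA, was high in 1 condition. In M2 it read 41.7, 38.4 and 41.2 CPM without a beam, 19.0, 25.2 and 18.8 CPM after FLASH and 28.1, 23.8 and 17.4 CPM after standard protons. No irradiated M2 library reached the non-irradiated ones. In M0 it read 22.2, 23.7 and 26.7 CPM without a beam against 15.0 to 24.7 CPM after FLASH and 15.3 to 19.7 CPM after standard protons. In M1 it read 25.5 to 27.6 CPM against 16.9 to 23.4 CPM and 19.0 to 25.8 CPM. The groups overlapped for FLASH in M0 and for standard protons in M1, and stood apart for the other two.

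Over the mean of states Lig3 was lower by -0.55 after FLASH (SE 0.11, adjusted p = 0.00267, limma) and -0.48 after standard protons (SE 0.11, adjusted p = 0.00728), and both calls held in each of the 18 fits that left out 1 library. In M2 it was lower by -0.94 (adjusted p = 0.0136) and -0.82 (adjusted p = 0.0329), which made H2afx and Lig3 the 2 members called there in each arm, where 1.1% and 1.35% of all genes were called (0.436% and 0.557% higher, 0.662% and 0.797% lower). Without a beam Lig3 was higher in M2 than in M0 by 0.73 (SE 0.19, adjusted p = 0.0187). The M2 call after FLASH was lost without FLASH M2 replicate 1 (0.0826) or 3 (0.0695) or non-irradiated M2 replicate 1 (0.0765), and that after standard protons without any 1 of the 3 non-irradiated M2 libraries or standard M2 replicates 2 and 3 (0.0527 to 0.163). The difference between M2 and M0 was lost without non-irradiated M0 replicate 1 (0.0674) or 2 (0.0621) or non-irradiated M2 replicate 1 (0.0646). The macrophage markers moved in the same group: 3 of 9 were called lower in non-irradiated M2 than M0, and 2 of 9 higher in M2 after each beam, with Lyz2 at 2970 to 3970 CPM in non-irradiated M2 and 7280 CPM or more in all other libraries. Their part in the Lig3 differences was not tested. Lig3 shares exon sequence on the opposite strand with Rffl, and reads from the shared stretch cannot be told apart without strand.

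Parp2, the smaller of the break-sensing poly(ADP-ribose) polymerases, differed less. It read 17.9 to 19.1 CPM in non-irradiated M0, 11.8 to 15.1 CPM after FLASH and 13.6 to 15.6 CPM after standard protons, with no overlap. In M1 it read 19.0 to 24.4 CPM without a beam, 13.4 to 17.3 CPM after FLASH and 15.0 to 19.3 CPM after standard protons. In M2 non-irradiated replicate 2, at 13.7 CPM, lay within the irradiated range of 12.1 to 17.8 CPM. Over the mean of states the difference was -0.37 after FLASH (SE 0.10, adjusted p = 0.0221, limma) and -0.28 after standard protons (adjusted p = 0.0834, and 0.0365 without the 5 libraries at odds). The FLASH call was lost without FLASH M2 replicate 3 (0.0534) or non-irradiated M2 replicate 1 (0.0556).

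**Figure D3:**
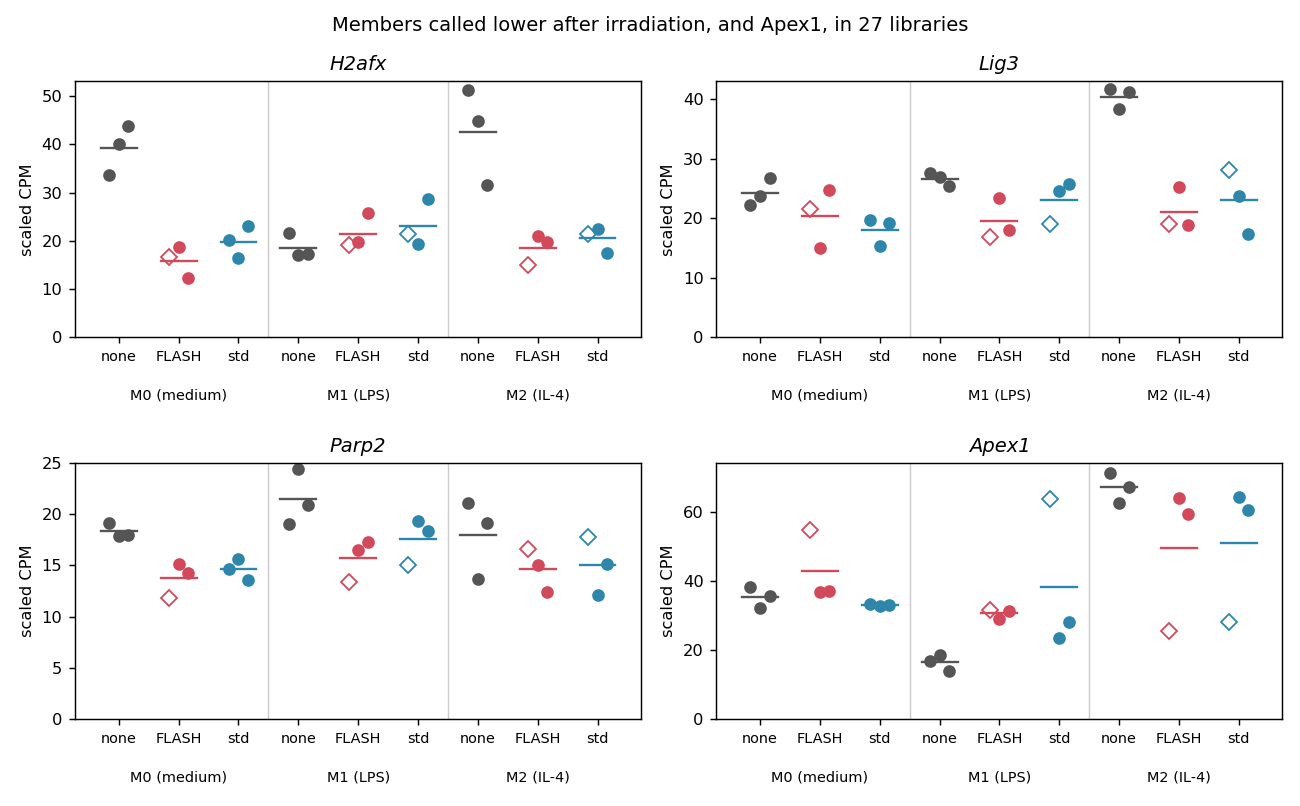
Scaled CPM of H2afx, Lig3, Parp2 and Apex1 in each of 27 libraries by beam (none, FLASH, standard) and labelled state; bars are group means, and open diamonds mark the 5 libraries at odds with their labels. H2afx is high in non-irradiated M0 and M2, Lig3 in non-irradiated M2 (38.4 to 41.7 CPM), and Apex1 splits by culture state.

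The rest of the single-strand break and base excision route was not called after irradiation with all libraries. Apex1, the endonuclease that opens DNA at lost bases and also acts as a redox factor, followed the culture state. Without a beam it read 38.2, 32.1 and 35.8 CPM in M0, 16.9, 18.7 and 13.8 CPM in M1 and 71.5, 62.7 and 67.3 CPM in M2, and the 3 groups did not overlap. It was lower in M1 than M0 by -1.09 (SE 0.34, adjusted p = 0.0315, limma). In M2 it was higher by 0.92 (adjusted p = 0.0893, and 1.112e-05 without the 5 libraries at odds). In 4 of the 5 libraries at odds, Apex1 lay away from the other libraries of its group. It read 54.8 CPM in the library labelled FLASH M0 replicate 1, which carried the IL-4 response, against 36.8 and 37.0 CPM. It read 63.7 CPM in the library labelled standard M1 replicate 1, which carried the IL-4 response, and 25.5 and 28.1 CPM in those labelled FLASH M2 and standard M2 replicate 1, which carried the LPS response. In the library labelled FLASH M1 replicate 1, which carried neither, it read 31.7 CPM beside 29.0 and 31.4 CPM.

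Within M1 Apex1 stood apart between beam and no beam. It read 31.7, 29.0 and 31.4 CPM after FLASH and 63.7, 23.4 and 28.1 CPM after standard protons, all above the 13.8 to 18.7 CPM of non-irradiated M1. With all libraries limma called 0 members in M1 in either arm, where 2.53% and 2.6% of all genes were called (0.729% and 0.985% higher, 1.8% and 1.62% lower). At unadjusted p below 0.05 stood 8 and 5 members, beside 15.5% and 17.5% of all genes. Apex1 differed by 0.89 (adjusted p = 0.187) and 1.07 (adjusted p = 0.0985). Without the 5 libraries at odds it was the 1 member called in each arm, at 0.87 (adjusted p = 0.000563) after FLASH and 0.64 (adjusted p = 0.0062) after standard protons, with 4.84% and 5.52% of all genes called. Each irradiated M1 group then held 2 libraries. The 20 LPS response genes summed to at most 9731 CPM in M1 after FLASH and 9011 CPM after standard protons, and to 12800 CPM or more without a beam. On the axis made from the same genes, the irradiated M1 libraries that followed their label read 0.881 and 0.99 after FLASH and 0.852 and 0.846 after standard protons, beside 0.924 to 1.09 without a beam, and those after FLASH overlapped. The part of the LPS response in the Apex1 difference was not tested. Apex1 shares exon sequence with Pip4p1 on the opposite strand.

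Parp1, the main sensor of strand breaks, read 127, 112 and 121 CPM in non-irradiated M0 and 75.1, 68.5 and 87.3 CPM in non-irradiated M1. It was lower in M1 by -0.65 (SE 0.19, adjusted p = 0.0224, limma), with no overlap. Irradiated M1 libraries read 94.5 to 125 CPM after FLASH and 99.4 to 136 CPM after standard protons, above non-irradiated M1 but not called (adjusted p = 0.176 and 0.133). Over the mean of states Parp1 differed by -0.01 after FLASH (95% interval -0.23 to 0.21) and 0.05 after standard protons (-0.17 to 0.28). Xrcc1, the scaffold that holds Lig3, read 21.6, 21.4 and 19.1 CPM in non-irradiated M2 and 23.9 to 39.7 CPM in irradiated M2, with no overlap and no call. The libraries labelled FLASH M2 and standard M2 replicate 1, which carried the LPS response, read 36.1 and 39.7 CPM. The other irradiated M2 libraries read 23.9 to 27.7 CPM. Of all tested genes, 18.1% after FLASH and 17.9% after standard protons did not overlap in M2. Ogg1, which removes oxidized guanine, stayed between 5.95 and 11.9 CPM.

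LPS without a beam lowered 4 members, H2afx, Parp1, Apex1 and Prkdc, and raised none, where 17.4% of all genes were called (9.87% higher, 7.54% lower). The share of members, 10.8%, was below that of all genes. Prkdc, the catalytic kinase of end joining, read 15.8, 14.9 and 20.4 CPM in M0 and 8.38, 8.49 and 8.85 CPM in M1, a difference of -0.94 (SE 0.32, adjusted p = 0.0456, limma). H2afx differed by -1.05 (SE 0.21, adjusted p = 0.00322) and was the only 1 of the 4 whose call held in all 6 fits that left out 1 library. Prkdc lost its call in all 6 (0.0598 to 0.158). Apex1 kept it only without non-irradiated M0 replicate 2, with 0.0645 without non-irradiated M1 replicate 1, 0.0635 without replicate 2 and 0.105 without replicate 3, and 0.0987 and 0.0859 without M0 replicates 1 and 3. Parp1 lost it without M0 replicate 1 (0.0798) or 3 (0.0679) or M1 replicate 1 (0.0576) or 2 (0.0966).

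Without the 5 libraries at odds, 2 more members were called, both higher in M1, with 34.7% of all genes called. Fanca, a core subunit of the Fanconi ligase, read 7.60, 12.6 and 7.05 CPM in M0 and 17.5, 44.8 and 30.5 CPM in M1. Its difference was 1.66 (adjusted p = 0.00993, and 0.0718 with all libraries). Rnf168, the ligase that marks histones for 53BP1, read 26.1 to 27.8 CPM in M0 and 30.0 to 39.1 CPM in M1, a difference of 0.37 (adjusted p = 0.0449, and 0.08 with all libraries). Fanca shares exon sequence with Zfp276 on the opposite strand. In irradiated M1, Fanca read 3.55, 10.7 and 25.3 CPM after FLASH and 8.43, 9.38 and 13.7 CPM after standard protons, and Rnf168 23.8 to 29.8 CPM and 25.1 to 26.5 CPM. By label these lay below non-irradiated M1 without overlap, except for Fanca after FLASH. None of these M1 differences was called (adjusted p = 0.121 to 0.253). In each arm the first Fanca value is from replicate 1, which did not carry the LPS response. The libraries labelled FLASH M2 and standard M2 replicate 1, which did, read 28.9 and 21.4 CPM of Fanca, within the range of non-irradiated M1. They read 35.6 and 27.3 CPM of Rnf168, the first of them within that range. Of the 26 cell cycle genes 3 were called lower in M1 (7 without the 5 libraries at odds), with a median of -0.96. A list of 9 T and natural killer cell genes summed to 3.35 to 7.53 CPM in non-irradiated M0, 42.4 to 57.5 CPM in non-irradiated M1 and 1.98 to 6.94 CPM in irradiated M1. Of its 5 tested genes 2 were called higher in M1 than M0, and 4 and 3 lower in M1 after FLASH and standard protons. The part of either list in the differences between M1 and M0, or between beam and no beam in M1, was not tested.

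**Figure D4:**
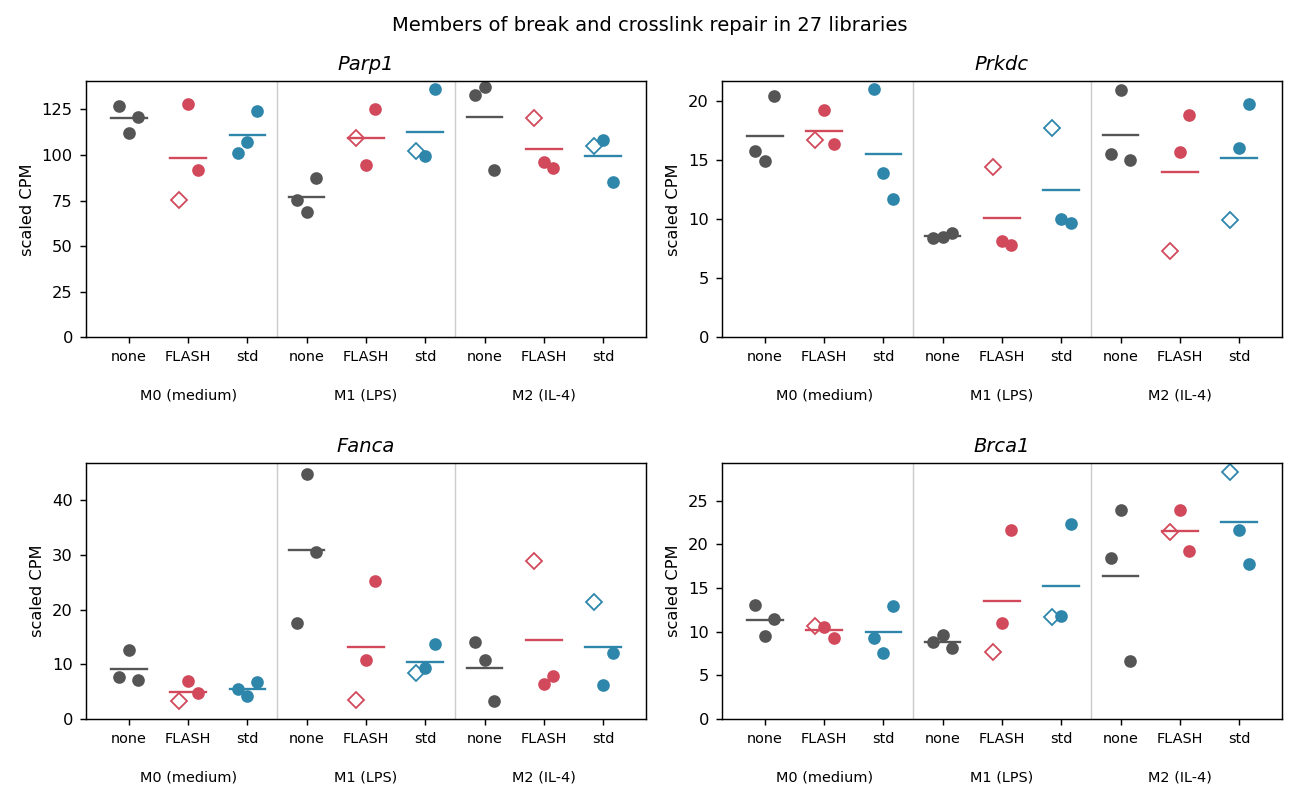
Scaled CPM of Parp1, Prkdc, Fanca and Brca1 in each of 27 libraries by beam and labelled state; bars are group means, and open diamonds mark the 5 libraries at odds with their labels. Parp1 and Prkdc are low and Fanca high in non-irradiated M1, and the diamonds of Prkdc lie away from their groups in M1 and M2 but not in M0.

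IL-4 without a beam moved fewer members. Lig3 alone was called, higher, where 9.83% of all genes were called (4.93% higher, 4.9% lower). Without the 5 libraries at odds Apex1 was also higher and Xpc lower, with 26% of all genes called. Xpc, which detects distorted DNA for excision repair, read 16.1, 22.4 and 16.8 CPM in M0 and 8.66, 11.2 and 15.4 CPM in M2, a difference of -0.65 (adjusted p = 0.0104, and 0.052 with all libraries). Irradiated M2 libraries read 10.2 to 16.9 CPM of Xpc, which overlaps non-irradiated M2. H2afx did not pass the test between M2 and M0 (0.10, 95% interval -0.33 to 0.52).

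The recombination and Fanconi members had no call after irradiation, although several stood apart in M0. Fancd2, the substrate that the Fanconi ligase places at stalled forks, read 10.6, 7.27 and 8.44 CPM in non-irradiated M0, 2.89, 2.28 and 2.25 CPM after FLASH and 3.41, 2.21 and 2.58 CPM after standard protons. The differences were -1.63 (SE 0.55, adjusted p = 0.136, limma) and -1.52 (SE 0.55, adjusted p = 0.187). Bard1, the partner of Brca1, read 4.36 to 5.18 CPM in non-irradiated M0 and 1.11 to 3.64 CPM in irradiated M0. Blm, a helicase that resolves recombination intermediates, read 7.26 to 10.1 CPM against 3.40 to 5.29 CPM. In M0, 11 members lay lower without overlap after FLASH and 13 after standard protons, and 1 (Lig4) higher in each, leaving out the sparse Brca2. Counted in both directions, 12 and 14 members and 24.3% and 28.8% of all tested genes did not overlap in those comparisons. The share of all genes lower without overlap, in either arm or in both, was not computed. The counts of lower members and the list that follows therefore have no background beside them. Members lower without overlap in both arms were H2afx, Bard1, Blm, Fanca, Fancd2, Fanci, Parp2 and Msh6. The 26 cell cycle genes had medians of -1.32 and -0.86 in the same comparisons, and their part was not tested.

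In M2 these genes varied widely within the non-irradiated group. Non-irradiated M2 replicate 3, the library with the low cell cycle sum, read 6.62 CPM of Brca1, 1.24 CPM of Bard1, 1.61 CPM of Exo1 and 0.966 CPM of Fancd2. Its replicates 1 and 2 read 18.4 and 24.0 CPM of Brca1, 5.30 and 8.98 CPM of Bard1, 8.17 and 6.57 CPM of Exo1, and 5.13 and 8.38 CPM of Fancd2. These low values in replicate 3 reach the lowest of all 27 libraries for Brca1 and Fancd2. By label, irradiated M2 libraries read 17.8 to 28.3 CPM of Brca1, above the 7.62 to 12.9 CPM of irradiated M0. Those labelled FLASH M2 and standard M2 replicate 1, which carried the LPS response, read 21.4 and 28.3 CPM, and the others 17.8 to 23.9 CPM. The libraries labelled FLASH M0 and standard M1 replicate 1, which carried the IL-4 response, read 10.7 and 11.7 CPM. Irradiated M2 was not tested against irradiated M0. Chek1, the checkpoint kinase downstream of Atr, spanned 1.08 to 8.43 CPM with no call in any comparison.

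The kinases and end joining genes had no call after irradiation. Atm, the kinase activated by double-strand breaks, differed by -0.53 after standard protons (SE 0.17, adjusted p = 0.064, limma) and -0.32 after FLASH (adjusted p = 0.294). In M0 it read 15.3 to 22.6 CPM without a beam, 12.9 to 22.7 CPM after FLASH and 11.4 to 13.7 CPM after standard protons, so only the standard libraries stood apart. Lig4, the ligase of end joining, read 9.44, 7.12 and 7.92 CPM in non-irradiated M0, 11.3, 10.5 and 13.6 CPM after FLASH and 11.3, 10.5 and 10.6 CPM after standard protons. All 6 irradiated M0 libraries were above the non-irradiated ones, but Lig4 did not pass the test there (0.51, adjusted p = 0.128; 0.39, adjusted p = 0.278). Over the mean of states it differed by 0.21 (adjusted p = 0.222) and 0.30 (adjusted p = 0.0659). Prkdc differed by -0.05 (95% interval -0.43 to 0.33) and 0.03 (-0.35 to 0.42). The break sensor Mre11a differed by 0.00 (95% interval -0.17 to 0.18) and -0.06 (-0.23 to 0.12).

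Prkdc lay away from its group in 4 of the 5 libraries at odds. It read 7.35 and 9.95 CPM in the libraries labelled FLASH M2 and standard M2 replicate 1, against 15.7 to 19.7 CPM in the other irradiated M2 libraries. The library labelled standard M1 replicate 1 read 17.7 CPM and that labelled FLASH M1 replicate 1 read 14.4 CPM, against 7.82 to 10.0 CPM in the other irradiated M1 libraries. In the library labelled FLASH M0 replicate 1 it read 16.7 CPM, beside 19.2 and 16.4 CPM. With and without these libraries, Prkdc was not called after irradiation in any state.

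FLASH and standard protons were not told apart by any member. Over the mean of states limma called 0 of 37, with 2 (Atr and Palb2) at unadjusted p below 0.05. It called 0% of all genes, with 2.96% at unadjusted p below 0.05. Leaving out Brca2, FLASH minus standard ranged from -0.18 for H2afx to 0.44 for Fancd2, every adjusted p was 1, and the 95% interval reached a median of 0.31 to either side. The interval was -0.43 to 0.06 for H2afx, -0.30 to 0.16 for Lig3 (difference -0.07) and -0.29 to 0.12 for Parp2 (difference -0.09). For 35 of 36 members it lay within 1 unit of 0 on the log2(CPM + 0.5) scale. On that scale 1 unit means 2-fold only for members well above 0.5 CPM. Some intervals were narrower, such as -0.07 to 0.25 for Ercc4 and -0.12 to 0.24 for Mre11a. Atr differed by 0.28 and Palb2, which links Brca1 to Brca2, by 0.37. Within M0, M1 and M2, 0 members were called, with 0% of all genes called in each. At unadjusted p below 0.05 stood 1, 1 and 2 members, beside 2.99%, 2.87% and 1.71% of all genes. The intervals there had a median reach of 0.54, and 26, 28 and 27 of 36 lay within 1 unit of 0. The missed threshold does not show that the modes act alike.

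**Figure D5:**
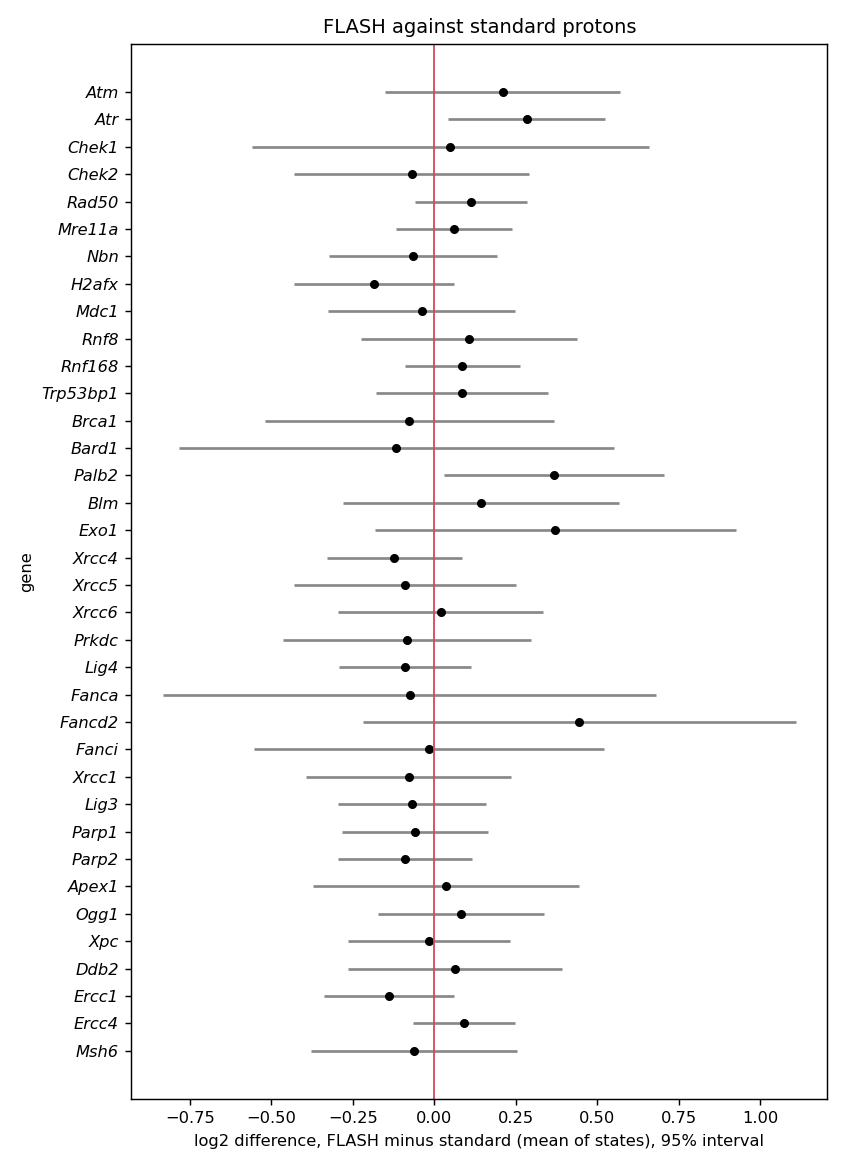
Log2 difference, FLASH minus standard, mean of the 3 states, with its 95% interval (grey line) for 36 of the 37 genes (Brca2 left out). The points lie between -0.18 and 0.44, and only the intervals of Atr and Palb2 leave out 0.

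Outside the 37 genes, 72 further repair genes were listed and all 72 were tested. Of these, 1 was called higher and 1 lower over the mean of states after FLASH, and 1 and 1 after standard protons, a share of 2.78% in each beside 7.72% and 7.88% of all genes. Without the 5 libraries at odds the counts were 2 higher and 1 lower after FLASH, and 1 higher and 5 lower after standard protons. Mgmt, which removes alkyl groups from guanine, was the one called higher in both. It read 4.0 to 6.21 CPM in the non-irradiated libraries and 7.89 to 15.4 CPM in the irradiated ones, with no overlap, and differed by 0.93 (SE 0.12, adjusted p = 3.3e-05, limma) and 1.09 (SE 0.12, adjusted p = 4.1e-06). The genes called lower were Mpg, a glycosylase for alkylated bases, after FLASH (-0.37, adjusted p = 0.0364) and Wrn, a helicase, after standard protons (-0.31, adjusted p = 0.029). Mpg read 6.67 to 8.63 CPM without a beam and 4.16 to 8.84 CPM after FLASH, and Wrn 34.2 to 41.4 CPM without a beam and 24.6 to 39.2 CPM after standard protons, so both overlapped. FLASH against standard called 0 of the 72.

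LPS without a beam moved more of these 72 genes, 6 higher and 7 lower, a share of 18.1% beside 17.4% of all genes. With the 5 libraries at odds left out, 8 were higher and 10 lower, with 34.7% of all genes called. The 3 largest rises were in Polb, the polymerase of base excision repair (10.3 to 14.2 CPM in M0 and 29.0 to 32.5 CPM in M1), Rbbp8, which trims break ends (10.5 to 13.7 CPM and 21.3 to 30.4 CPM), and Aptx, which clears stalled ligation ends (14.3 to 18.2 CPM and 24.8 to 31.6 CPM). The 3 largest falls were in Ercc6, of transcription-coupled repair (10.1 to 18.4 CPM and 3.54 to 5.26 CPM), Dna2, an end-resection nuclease (8.53 to 13.1 CPM and 3.07 to 4.96 CPM), and Fancm, a fork translocase (6.07 to 7.98 CPM and 2.46 to 4.22 CPM). These 6 were picked as the largest called differences, and none overlapped between M0 and M1, as was so for 45.3% of all tested genes. IL-4 raised 1 of the 72, Rad23b, which holds Xpc, by 0.45 (adjusted p = 0.0171). The counts were 2 higher and 3 lower without the 5 libraries at odds.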

How the data were processed

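RNA of 27 libraries was sequenced, and the deposited table holds scaled CPM on a linear scale, treated as a signal per gene. Per the submitters' processing notes, the authors used kallisto 0.46.1, R 4.0.5 and edgeR 3.36.0 and named build GRCh38, a human build, for these mouse libraries. Column sums of the deposited signal ranged from 929338 to 1072650, and the values were used as given. Of 19070 entries, 1 without a name was left out. The steps in low values gave whole reads within 0.01 for 96.5% to 98.2% of values, but no count test was run. In R 4.3.3 with limma 3.58.1 (statmod 1.5.0), log2(CPM + 0.5) of the 13297 genes was fitted with 9 group means (residual df 18, intensity trend, robust), with Benjamini-Hochberg adjustment over all genes within each of 18 comparisons and calls at adjusted p below 0.05. Differences are on that log2 scale, which understates the change of low genes. Replicates are as labelled. A library was at odds with its label past 0.5 on an LPS or IL-4 axis its label does not name, or below 0.5 on the one it names. The test was checked on simulated counts, with the same spread setting for every gene and changes planted in non-irradiated M1 only. The simulation held no libraries at odds with their labels, so it does not cover that feature of these data. Members and lists were chosen with earlier results of these data known. Any member could be named, and, of the further repair genes, up to 3 called per direction with the largest difference. The tried alternatives were pseudocount 1, other filters on low values, median-of-ratios scaling, no trend, a replicate block, and left-out libraries.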

Additional observations from a re-analysis of the deposited data

Results flagged for a closer look

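The difference between groups that calls for a second look is that of H2afx after FLASH in M1 against M0. The contrast of the 2 differences was 1.49 on the log2 scale (adjusted p = 0.0405, limma), since H2afx fell in M0 and did not pass the test in M1. Split by replicate number, the same data gave 0.81, 1.29 and 2.36. For number 1, the FLASH M0 and FLASH M1 libraries both went against their labels. The call was lost with the replicate block. Non-irradiated M1 already had low H2afx (17.0 to 21.7 CPM) and the lowest sums of cell cycle genes (694 to 838 CPM). For the same contrast the 26 cell cycle genes had a median of 1.5, with 26 of 26 positive and 0 called by limma. Their part in the H2afx contrast was not tested.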

How the results depend on the processing

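Of 17 calls of single members, all 17 held with pseudocount 1, with the stricter filter of 5 CPM in 3 libraries, with median-of-ratios scaling, without the variance trend and without the 5 libraries at odds with their labels, 16 with no filter, and 9 with replicates 2 and 3 only, and no direction was reversed under any alternative tried. With the replicate block 13 held: the M1 against M0 count went from 4 to 2, standard protons in M2 from 2 to 1 and the interaction of FLASH with M1 from 1 to 0. Among the 72 further repair genes the block gave 3 higher and 4 lower for M1 against M0, and left Mgmt alone called over the mean of states in each arm. Titles of a replicate number share a code whose meaning the labels do not give. The numbers were not used as pairs, since their meaning is not given. Only 9 of 108 same-numbered pairs correlated above 0.1 (median -0.10), and 0 of 27 libraries matched their own number best. These correlations used deviations from the labelled group means, with the 5 libraries at odds included. They therefore cannot show whether the numbers pair. For M2 against M0 the count of 1 became 2 with the stricter filter and 3 without the 5 libraries; in M1 the counts of 0 became 1 after FLASH and 1 after standard protons without them, and 1 and 2 with replicates 2 and 3 only, a setting that gave 0 for both M2 comparisons and for the interaction of FLASH with M1. Leaving out 1 library gave 1 to 3 members for M1 against M0, 0 to 2 for M2 against M0, 2 to 3 for FLASH and 2 to 4 for standard protons over the mean of states, 1 for FLASH in M0, 0 to 1 for standard protons in M0, 0 to 2 for each in M2, 0 to 1 for the interaction of FLASH with M1, and 0 elsewhere. The median of the members ranged over those fits from -0.08 to 0.19 for standard protons in M1 and from -0.11 to 0.13 for the interaction of standard protons with M2. The cause of these changes was not tested, beyond fewer samples where libraries are left out. Brca2 and Ddb2 reached 1 CPM in only 3 and 13 of the 27 libraries, which limits what their differences can show. The cause of their low values was not tested.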
